A study of Homo sapiens with 112 samples.

Results

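The endoplasmic reticulum (ER) folding, translocation and degradation machinery was followed through 45 genes chosen by symbol from the gene table. All 45 were found among its 58684 gene rows. In each cell line all 45 passed a filter of 10 or more reads in 4 or more libraries, which 19266 genes of the whole table passed in VCaP and 18204 in LAPC4. RNA sequencing was done on VCaP and LAPC4, established androgen-responsive lines of human prostate cancer, with 55 and 57 libraries. The question was how an androgen and the androgen receptor antagonist darolutamide changed transcript levels in each line.

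Every group shares 2 days of prior starvation in 10% charcoal-stripped serum, which holds little steroid hormone. They then received the vehicle DMSO, 1 nM of the synthetic androgen R1881, R1881 plus 500 nM darolutamide, or R1881 plus 2 µM darolutamide, for 8 or 22 h. In VCaP these 4 treatments had 10, 10, 4 and 5 libraries at 8 h and 8, 9, 4 and 5 at 22 h. In LAPC4 each darolutamide group had 5 libraries, while DMSO had 10 at 8 h and 7 at 22 h and R1881 had 10 at each time. No group received darolutamide without R1881. The DMSO and R1881 groups hold more libraries than the biological replicates that the study describes per condition, so some libraries of a group may not be independent cultures and p-values may be too small.

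Libraries held between 12188455 and 25201678 reads assigned to genes. Prostate epithelial markers were high in both lines, with a summed level from 4310 to 7610 CPM (read counts scaled to library size) in the 22 h VCaP libraries and from 2000 to 2370 CPM in those of LAPC4. In VCaP at 22 h this sum was 7000 to 7610 CPM with DMSO and 4990 to 5320 CPM with R1881, while KLK3, a classical androgen-induced gene, had a median of 17.8 CPM with DMSO and 190 CPM with R1881. In LAPC4 at 22 h the KLK3 medians were 14.5 and 45.2 CPM. The endothelial and leukocyte marker sums stayed at or below 3.46 CPM, although the endothelial sum went from 0.413 to 0.84 CPM with DMSO to 2.02 to 3.32 CPM with R1881 in VCaP at 22 h. A sum over 5 fibroblast markers did move with treatment in VCaP, from 27.4 to 31.2 CPM with DMSO at 22 h to 1.07 to 2.33 CPM with R1881. Most of that movement lay in LUM, at 24.4 to 28.8 CPM with DMSO and 0.0999 to 0.332 CPM with R1881, while COL1A2 had 0 reads in all VCaP libraries and DCN at most 7.

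Secreted and membrane proteins enter the ER through the SEC61 channel, lose their signal peptide to the signal peptidase complex, and are folded there by chaperones such as HSPA5 (BiP) and by the protein disulfide isomerases. Chains that fail to fold are extracted to the cytosol and degraded, a route called ER-associated degradation (ERAD). When unfolded chains accumulate, the sensors ERN1 (IRE1), ATF6 and PERK start the unfolded protein response. ERN1 splices the XBP1 messenger RNA, and spliced XBP1 and cleaved ATF6 raise the transcription of many of the genes described here. The prostate epithelium is a secretory tissue, and its luminal cells export large amounts of glycoprotein.

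The promoters of these genes are known for the ER stress response element, ERSE, which binds ATF6 with NF-Y, for the related ERSE-II, and for the unfolded protein response element, UPRE, a target of XBP1. Promoter windows of 250 bases before the annotated start were taken from RefSeq on build GRCh38.p14 and matched 41 of the 45 genes by symbol. The windows of HSPA5 (chr9:125241344-125241593, minus strand), XBP1 (chr22:28800570-28800819, minus strand), HERPUD1 (chr16:56931892-56932141, plus strand), SDF2L1 (chr22:21642052-21642301, plus strand) and DNAJC10 (chr2:182716007-182716256, plus strand) are printed because these 5 genes carry the results below and show each kind of element. Each is written 5′ to 3′ toward its gene, and capitals mark the fixed letters or the whole of the element found.
HSPA5: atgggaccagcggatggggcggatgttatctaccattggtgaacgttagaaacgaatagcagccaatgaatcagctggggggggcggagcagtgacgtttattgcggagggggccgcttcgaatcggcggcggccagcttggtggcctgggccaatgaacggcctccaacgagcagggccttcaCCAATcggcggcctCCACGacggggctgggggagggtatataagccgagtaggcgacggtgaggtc
XBP1: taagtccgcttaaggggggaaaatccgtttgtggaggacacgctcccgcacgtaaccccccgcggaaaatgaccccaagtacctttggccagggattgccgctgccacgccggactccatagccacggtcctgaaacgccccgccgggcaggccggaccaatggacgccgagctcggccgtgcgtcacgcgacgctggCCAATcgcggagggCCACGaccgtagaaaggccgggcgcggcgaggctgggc
HERPUD1: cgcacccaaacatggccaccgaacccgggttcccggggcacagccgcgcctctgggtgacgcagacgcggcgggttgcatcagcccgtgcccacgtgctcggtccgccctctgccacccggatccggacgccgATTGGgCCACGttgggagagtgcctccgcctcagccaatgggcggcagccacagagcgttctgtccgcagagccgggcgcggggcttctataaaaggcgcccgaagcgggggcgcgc
SDF2L1: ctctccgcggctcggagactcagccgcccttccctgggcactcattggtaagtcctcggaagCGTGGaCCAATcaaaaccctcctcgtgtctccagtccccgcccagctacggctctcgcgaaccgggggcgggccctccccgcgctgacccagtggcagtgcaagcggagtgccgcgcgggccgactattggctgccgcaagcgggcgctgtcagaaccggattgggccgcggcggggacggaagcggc
DNAJC10: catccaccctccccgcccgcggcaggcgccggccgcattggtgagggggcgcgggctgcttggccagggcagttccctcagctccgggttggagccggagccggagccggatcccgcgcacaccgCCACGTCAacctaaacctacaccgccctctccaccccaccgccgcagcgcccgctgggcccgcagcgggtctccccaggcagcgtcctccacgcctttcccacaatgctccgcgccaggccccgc

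Both strands were searched. Because promoters of these genes are already known for the ERSE, ERSE-II and UPRE, the shares below describe the set and are no test of it. The ERSE letters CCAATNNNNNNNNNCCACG lay in a window of 7 of the 41 genes (17.1%), against 25 of all 27305 genes with a window (0.0916%). Those 7 were HSPA5, HSP90B1, CALR, CANX, CRELD2, PDIA6 and XBP1, and the HSPA5 and XBP1 matches lay on the strand of the gene, 66 to 48 and 52 to 34 bases before the start. The ERSE-II, ATTGG and CCACG with any base between them, was found in HERPUD1, HYOU1 and SDF2L1 (7.32%, against 0.0659% of all genes), in HERPUD1 on the strand of the gene and in SDF2L1 on the opposite strand. The UPRE core TGACGTGG was found in DNAJC10, HYOU1, SEC62, SSR3 and SSR4 (12.2%, against 0.78%), on the opposite strand in DNAJC10 and overlapping the ERSE-II in HYOU1. The full androgen response element, AGAACA and TGTTCT with any 3 bases between them, was found in 0 of the 41 genes and in 1 of 27305. Its first part AGAACA was found in 1 of the 41, SEC62, and in 14.8% of all genes. The windows of ERN1, SEC11C and DNAJC3 held none of these letters, and other letters or distal sites were not searched. On GRCh38 the other genes given in full lie, on the plus strand, at chr13:95677139-95794988 (DNAJC3), chr3:123067025-123225227 (PDIA5), chr3:169966635-169998373 (SEC62) and chr18:59139866-59158832 (SEC11C), and on the minus strand at chr14:52639915-52695900 (ERO1A) and chr17:64039080-64130819 (ERN1).

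R1881 raised nearly the whole set in VCaP after 22 h. Of the 45 genes 43 were higher than with DMSO and 0 were lower (edgeR quasi-likelihood test, Benjamini-Hochberg adjusted p under 0.05 over 19266 genes), in a comparison in which 77.4% of all genes tested were called, 37.4% of them as higher. The median log2 fold change was 1.46 over the 45 genes and -0.03 over all genes. For 42 of the 45 every R1881 library lay above every DMSO library, which held for 23.4% of all genes. The exceptions to the call were SEC11A, a catalytic subunit of signal peptidase, with a log2 fold change of -0.03, and the sensor ATF6, with -0.01. The marker sums given above moved in the same libraries, and their part in these values was not tested. In such bulk samples a change in RNA per cell and a change in the mix of cells cannot be told apart.

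In LAPC4 the same treatment moved the set little. At 22 h 6 genes were higher and 2 lower, in a comparison in which 13.3% of all genes were called (6.83% higher and 6.45% lower). The median log2 fold change was 0.02, and the R1881 and DMSO libraries overlapped for all 45 genes. Such overlap was also the rule over all genes. Every R1881 library lay above every DMSO library for 2.3% of them, and below for 1.54%. The 95% interval of the change lay within 0.25 log2 units of 0 for 39 of the 45, and the others were SDF2L1, CRELD2, PDIA5, SEC61B, SSR4 and DERL3.

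**Figure D1:**
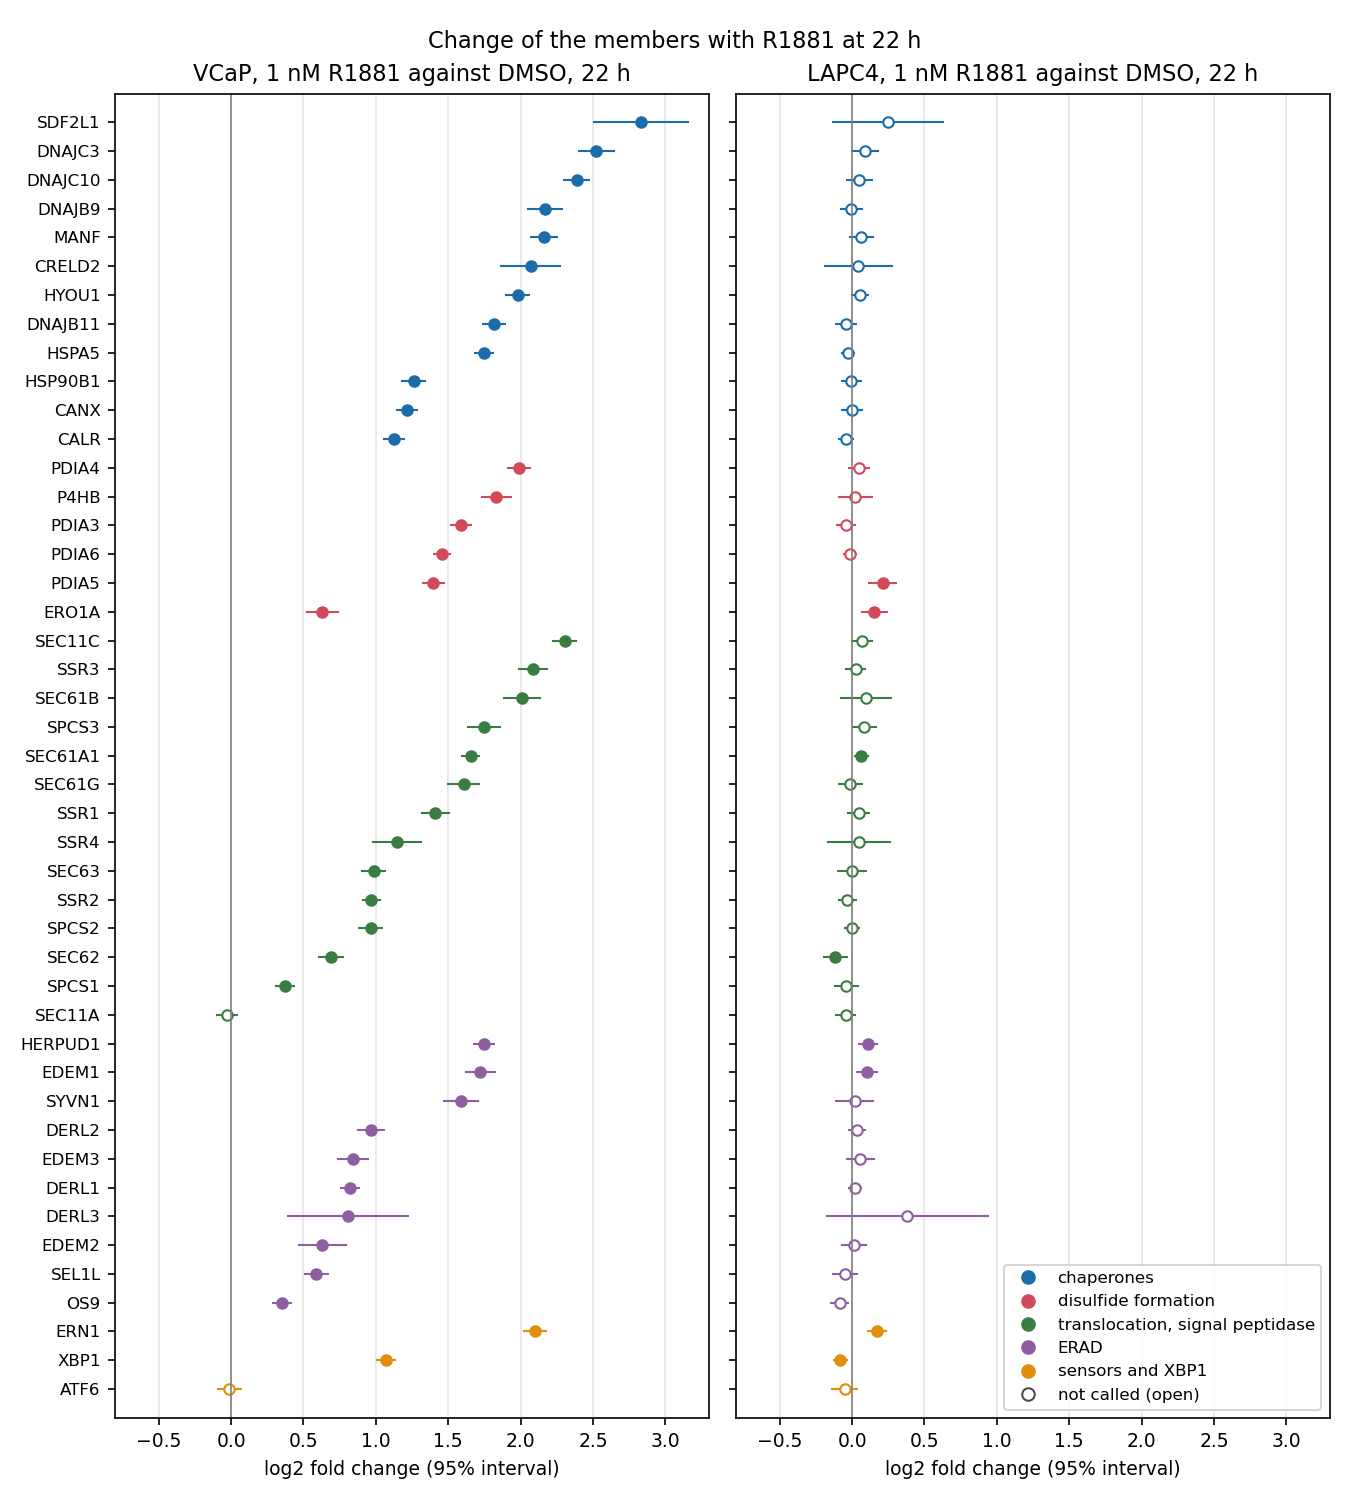
Log2 fold change of each of the 45 genes with R1881 against DMSO at 22 h in VCaP and LAPC4, from the fit to each line, with bars of the 95% interval, colours for the role groups and open points for genes not called. In VCaP 43 of the 45 points were called higher with a median of 1.46, while in LAPC4 the points lie around a median of 0.02.

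The 12 lumenal chaperones and cochaperones were all higher with R1881 in VCaP at 22 h, with a median log2 fold change of 2.03 and a range from 1.13 to 2.83. HSPA5, the main ER member of the HSP70 family, ran from 637 to 698 CPM with DMSO (median 661) and from 2036 to 2387 CPM with R1881 (median 2255). The groups lay well apart, and the log2 fold change was 1.75 (SE 0.032, n = 8 and 9, edgeR adjusted p = 2.73e-46). In LAPC4 HSPA5 ran from 1093 to 1156 CPM with DMSO (median 1122) and from 1034 to 1137 CPM with R1881 (median 1110). These overlapped, with a log2 fold change of -0.03 (edgeR adjusted p = 0.423).

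DNAJC3 (p58IPK), a cochaperone that also inhibits PERK, had 17.1 to 23.5 CPM with DMSO (median 20.5) and 103.6 to 137.7 CPM with R1881 (median 119.5) in VCaP at 22 h. DNAJC10 (ERdj5), which reduces disulfide bonds ahead of degradation, had 82.9 to 103.5 CPM with DMSO (median 90.2) and 449 to 543 CPM with R1881 (median 481). The log2 fold changes were 2.52 (SE 0.0605) for DNAJC3 and 2.39 (SE 0.0446) for DNAJC10, with edgeR adjusted p of 1.26e-40 and 6.83e-46. SDF2L1, which forms a complex with the cochaperone DNAJB11, had 1.25 to 3.44 CPM with DMSO (median 2.57) and 12.2 to 22.0 CPM with R1881 (median 16.5). Its change was the largest of the 45, at 2.83 (SE 0.167, edgeR adjusted p = 2.61e-22), and it rested on only 26 to 69 reads per DMSO library and 194 to 453 per R1881 library.

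In LAPC4 these 3 cochaperones overlapped between DMSO and R1881. DNAJC3 had 77.7 to 92.5 CPM with DMSO (median 84.2) and 78.0 to 99.7 with R1881 (median 89.7). DNAJC10 had 302.6 to 363.1 CPM (median 323.4) and 315.2 to 383.6 (median 338.3), and SDF2L1 had 3.99 to 7.15 CPM (median 4.98) and 3.48 to 9.37 (median 6.33). None of the 3 passed the test, with edgeR adjusted p of 0.245, 0.573 and 0.509. With DMSO at 22 h DNAJC3 and DNAJC10 thus stood several-fold higher in LAPC4 than in VCaP on the CPM scale, a difference between lines that was not tested. HYOU1, an exchange factor for HSPA5, rose by 1.98 in VCaP on the log2 scale and MANF, a secreted ER stress protein, by 2.16, while DNAJB9 (ERdj4) went from a median of 14.4 to one of 62.7 CPM. The smallest change of the group, 1.13, was that of the lectin chaperone CALR, and its partner CANX rose by 1.22.

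All 6 genes of disulfide formation were higher with R1881 in VCaP at 22 h, with a median log2 fold change of 1.52. PDIA4 rose most, by 1.99, and P4HB (PDI) rose by 1.83, from 436.8 to 573.6 CPM with DMSO (median 523.9) to 1637 to 1985 CPM with R1881 (median 1811). PDIA5 had 35.9 to 46.4 CPM with DMSO (median 41.6) and 103.2 to 111.4 CPM with R1881 (median 107.8), a change of 1.40 (SE 0.0368, edgeR adjusted p = 1.29e-38). ERO1A, the oxidase that recharges the disulfide isomerases, changed least. It ran from 40.9 to 53.5 CPM with DMSO (median 44.4) and from 62.9 to 85.5 CPM with R1881 (median 69.8), and although these groups were apart the change was 0.63 (SE 0.0542, edgeR adjusted p = 1.28e-15).

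PDIA5 and ERO1A were also called higher in LAPC4. PDIA5 had 15.1 to 17.99 CPM with DMSO (median 16.4) and 16.7 to 21.1 CPM with R1881 (median 19.5), and ERO1A had 80.4 to 104.2 CPM (median 90.7) and 91.8 to 109 CPM (median 100.5). Both pairs of groups overlapped. The log2 changes were 0.21 (SE 0.0468, edgeR adjusted p = 0.000641) and 0.15 (edgeR adjusted p = 0.0108). PDIA5 overlaps the gene SEC22A on the same strand, so reads could be shared between them in both lines.

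Of the 14 genes of translocation and signal peptide cleavage 13 were higher with R1881 in VCaP at 22 h, with a median log2 fold change of 1.28 and a range from -0.03 to 2.30. SEC11C, the alternative catalytic subunit of signal peptidase, had 36.2 to 41.1 CPM with DMSO (median 38.0) and 174.8 to 207.3 CPM with R1881 (median 187). The groups did not overlap, and the change was 2.30 (SE 0.040, edgeR adjusted p = 1.67e-47). Its counterpart SEC11A ran from 171.7 to 195.5 CPM with DMSO (median 179.1) and from 166.9 to 196.2 CPM with R1881 (median 177.3), groups that overlapped fully.

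Among the channel and its partners SSR3, a translocon-associated subunit, rose by 2.09 on the log2 scale, SEC61B by 2.01 and SEC61A1, the pore itself, by 1.66. SEC62, which assists post-translational import and ER-phagy, was among the weakest, with 217 to 268 CPM with DMSO (median 233) and 352 to 449 CPM with R1881 (median 388). These groups were still apart, and the change was 0.69 (SE 0.0427, edgeR adjusted p = 2.13e-21). In LAPC4 SEC62 was instead called lower, with 178.3 to 208.2 CPM with DMSO (median 193.4) and 168 to 194.2 CPM with R1881 (median 180.6), a change of -0.12 (SE 0.0398, edgeR adjusted p = 0.0429) between overlapping groups. SEC11C had 55.8 to 66.8 CPM (median 59.8) and 58.1 to 68.3 CPM (median 63.8) in LAPC4, with an edgeR adjusted p of 0.213.

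All 10 ERAD genes were higher with R1881 in VCaP at 22 h, with a lower median log2 fold change, 0.83, and a range from 0.35 to 1.75. HERPUD1, which organizes the ubiquitin ligase complex of ERAD, had 56.7 to 61.4 CPM with DMSO (median 59.3) and 182.7 to 210.6 CPM with R1881 (median 198.8), without overlap (log2 1.75, SE 0.0349, edgeR adjusted p = 1.61e-44). The mannosidase-like EDEM1 rose by 1.72 and the ubiquitin ligase SYVN1 (HRD1) by 1.59, while SEL1L, the adaptor of SYVN1, rose by 0.59 and the lectin OS9 by 0.35. The change of DERL3, 0.81, rested on 3 to 22 reads per DMSO library and 15 to 31 per R1881 library, and those groups overlapped. In LAPC4 HERPUD1 went from 52.9 to 59.0 CPM (median 57.1) to 56.1 to 66.5 CPM (median 60.9), overlapping groups with a change of 0.11 (SE 0.0305, edgeR adjusted p = 0.00807).

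Of the sensors and XBP1, XBP1 and ERN1 were higher and ATF6 was not called in VCaP at 22 h. XBP1 had 230 to 263 CPM with DMSO (median 247) and 495 to 550 CPM with R1881 (median 518), with a log2 change of 1.07 (SE 0.0308, edgeR adjusted p = 8.84e-37). ERN1, the kinase and nuclease that splices XBP1, had 21.6 to 27.6 CPM with DMSO (median 24.8) and 103 to 115.1 CPM with R1881 (median 109.1), a change of 2.10 (SE 0.0385, edgeR adjusted p = 2.68e-46). Neither pair of groups overlapped. These are levels of the whole transcript, and gene counts do not separate spliced from unspliced XBP1.

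In LAPC4 ERN1 was called higher and XBP1 lower, by small amounts and between overlapping groups. ERN1 went from 28.4 to 32.5 CPM with DMSO (median 29.1) to 30.0 to 35.7 CPM with R1881 (median 33.5), a log2 change of 0.17 (SE 0.0317, edgeR adjusted p = 3.43e-05). XBP1 went from 322.8 to 356.7 CPM (median 325.9) to 299.4 to 338.7 CPM (median 312.4), a change of -0.08 (SE 0.0242, edgeR adjusted p = 0.0160). The other 2 calls in LAPC4 were SEC61A1, higher by 0.06, and EDEM1, higher by 0.10. The LAPC4 count fell from 8 to 3 with DMSO and R1881 replicates 1 to 5 alone, and rose to 15 with a GC covariate. It fell to 0 with the DMSO and R1881 replicates from 6 upward alone, which left only DMSO replicates 6 and 7 at 22 h. The count thus depended on the libraries and the fit, and the part of the smaller groups in it was not tested.

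**Figure D2:**
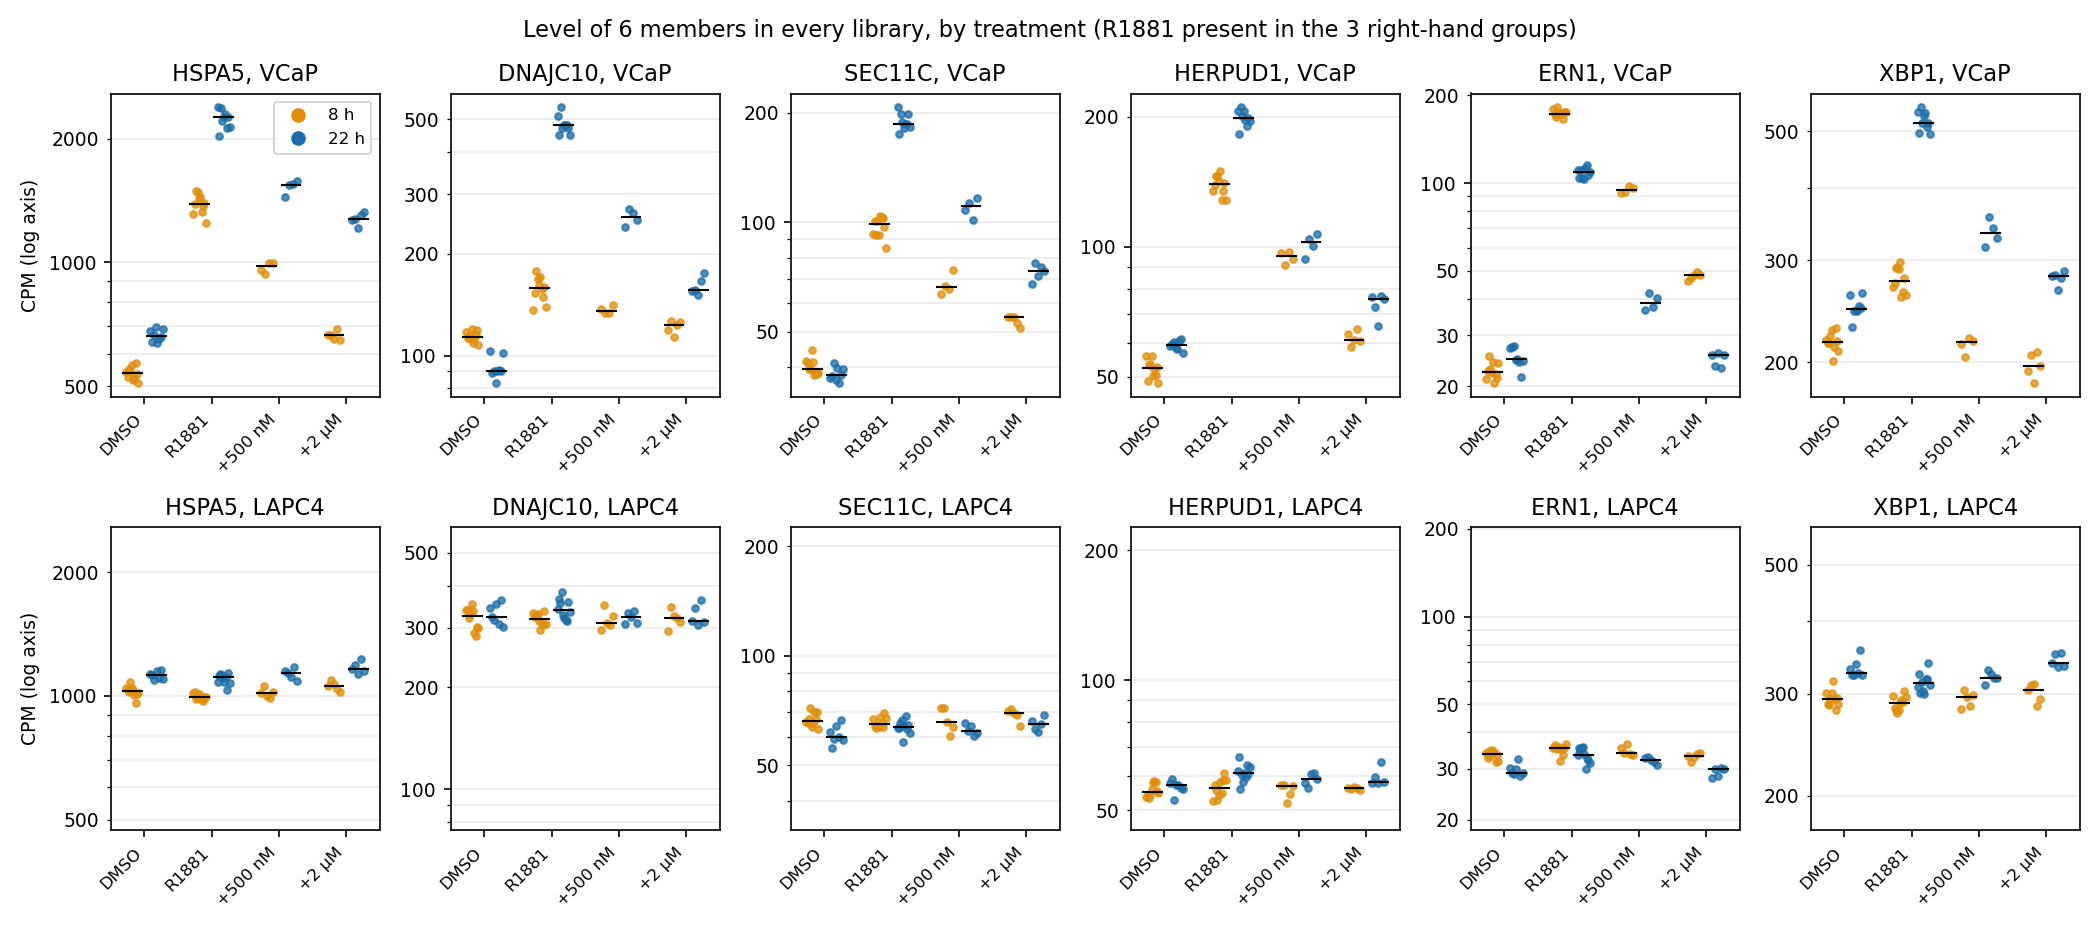
CPM on a log axis in every library for HSPA5, DNAJC10, SEC11C, HERPUD1, ERN1 and XBP1, with VCaP above and LAPC4 below, 8 h in orange and 22 h in blue, and a black line at each group median. In VCaP the R1881 groups stand above the others and the darolutamide groups step down with dose, as for HSPA5 from a median of 2255 CPM at 22 h, while in LAPC4 the R1881 and DMSO groups of the same time overlap.

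The difference between the lines was itself tested in a joint fit over 16578 genes. At 22 h the R1881 effect was larger in VCaP than in LAPC4 for 42 of the 45 genes and smaller for 0, with a median difference of 1.41 log2 units, where 68.5% of all genes differed, 31.6% in that direction. It was not called for SEC11A, DERL3 and ATF6. The difference was 2.53 (SE 0.253) for SDF2L1, 2.38 for DNAJC3, 2.18 for SEC11C and 1.72 (SE 0.0411, edgeR adjusted p = 2.04e-63) for HSPA5. It was smallest among the genes given in full for ERO1A, at 0.42 (SE 0.0762, edgeR adjusted p = 8.72e-07). At 8 h the effect was larger in VCaP for 36 genes and smaller for 2, SEL1L and EDEM3. Of all genes 58.5% differed, 26.4% with a larger and 32.1% with a smaller effect in VCaP. Every line difference compares a single line with another, so line and any feature that goes with it cannot be told apart.

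At 8 h most of the set had already risen in VCaP. With R1881 38 of the 45 genes were higher and 1 lower than with DMSO, where 66.9% of all genes were called (32.8% higher and 34.1% lower), and the median log2 fold change was 0.75. The R1881 libraries all lay above the DMSO libraries for 34 genes (17.4% of all genes). All 12 chaperones, all 6 disulfide genes and 12 of 14 translocation genes were higher, but only 5 of the 10 ERAD genes were. SEL1L was the gene called lower, at -0.13, with 153.7 to 171.8 CPM with DMSO (median 164.9) and 128.3 to 167.7 CPM with R1881 (median 150.2), groups that overlapped.

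The R1881 effect was larger at 22 h than at 8 h for 40 genes and smaller for 4, in a test of the difference that called 60.4% of all genes (28.1% and 32.3%). The median difference was 0.56 log2 units. It was largest for DNAJC10, at 1.92 (SE 0.0581, edgeR adjusted p = 9.54e-35). At 8 h DNAJC10 had run from 107.8 to 119.8 CPM with DMSO (median 113.7) and from 136.3 to 178.1 CPM with R1881 (median 158.4). At 22 h it had 82.9 to 103 CPM with DMSO and 449 to 543 CPM with R1881. Most of its rise thus came after 8 h, and the lower DMSO level at 22 h added to the difference. P4HB gained 1.31 and SSR4 1.15 between the time points, and SEL1L gained 0.72 to become higher at 22 h, with 181.1 to 217.7 CPM with DMSO (median 190.3) and 267.8 to 325.4 CPM with R1881 (median 291.4).

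The 4 genes with a smaller effect at 22 h were ERN1, EDEM1, DNAJB9 and ATF6. ERN1 had the largest 8 h change of the set, 2.93 (SE 0.0356, edgeR adjusted p = 5.11e-55), from 20.5 to 25.5 CPM with DMSO (median 22.5) to 165.4 to 182.1 CPM with R1881 (median 173.1). Every 22 h R1881 library lay below every 8 h R1881 library, and the effect was smaller by 0.83 (log2 -0.83, SE 0.0507, edgeR adjusted p = 4.36e-21). EDEM1 had 25.4 to 31.5 CPM with DMSO (median 29.4) and 126.5 to 175.4 CPM with R1881 (median 158.9) at 8 h, against 28.2 to 34.5 (median 30.6) and 90.2 to 112.6 CPM (median 103.1) at 22 h. Its effect went from 2.41 to 1.72, a difference of -0.69. DNAJB9 had already reached 50.8 to 69.7 CPM with R1881 at 8 h (median 64.4), much as at 22 h, when it had 59.7 to 75.5 CPM (median 62.7). ATF6 was called higher at 8 h by 0.25 and was at -0.01 at 22 h.

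**Figure D3:**
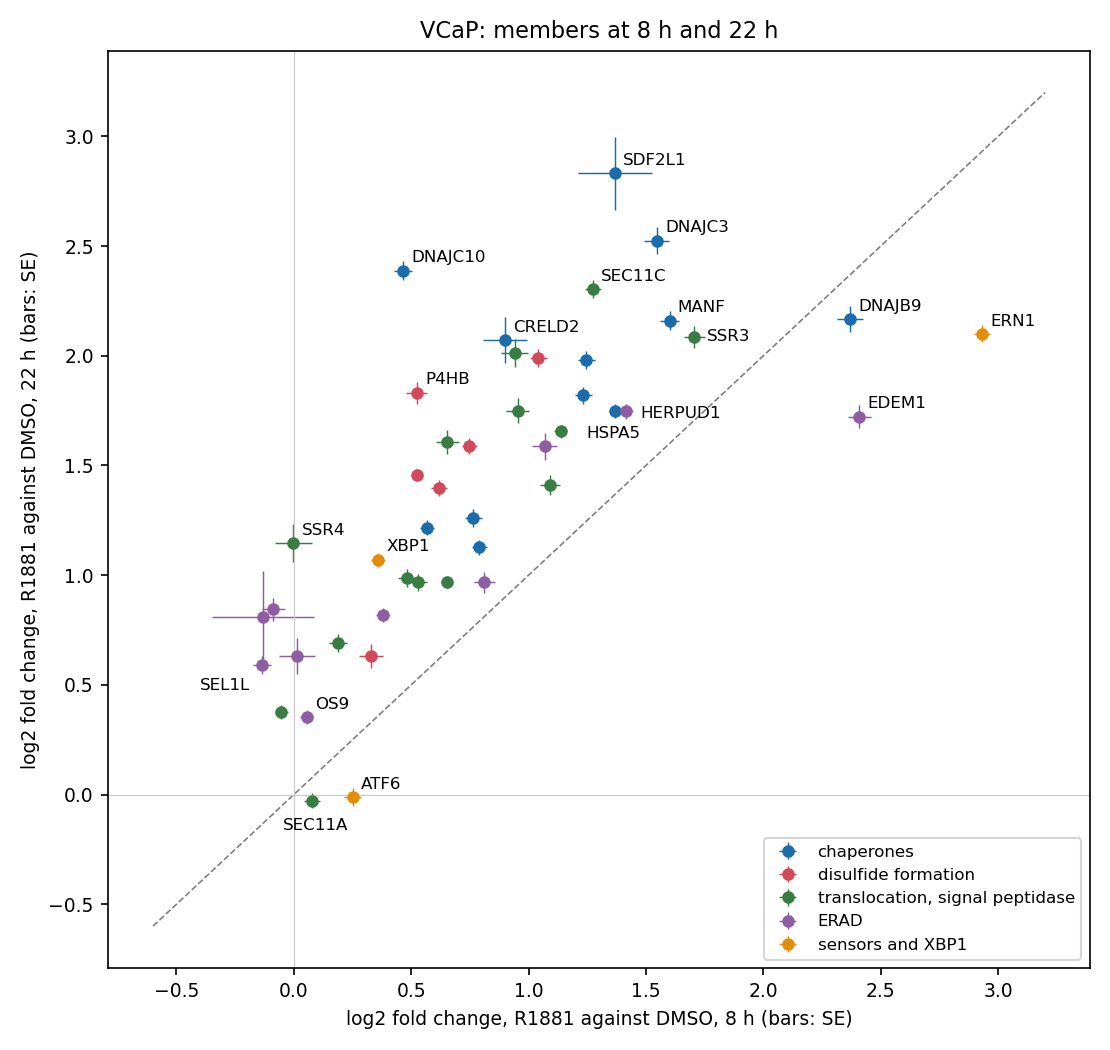
Log2 fold change with R1881 against DMSO in VCaP at 8 h on the horizontal axis and at 22 h on the vertical axis for the 45 genes, with bars of 1 SE, colours for the role groups and a dashed line of equal change. Most points lie above the line, DNAJC10 far above it at 0.46 and 2.39, and ERN1, EDEM1, DNAJB9 and ATF6 lie below it. SEC11A also lies slightly below it, by a difference that was not called.

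The other genes given in full were also higher with R1881 at 8 h in VCaP. HSPA5 had 508 to 570 CPM with DMSO (median 539) and 1248 to 1490 CPM with R1881 (median 1391), HERPUD1 had 48.4 to 55.9 (median 52.4) and 128.2 to 149.8 CPM (median 139.8), and SEC11C had 38.2 to 44.6 (median 39.6) and 85.3 to 104.1 CPM (median 98.9). XBP1 had 201 to 229 CPM (median 217) and 259 to 297 CPM (median 276), a smaller step of 0.36 on the log2 scale. None of these 4 overlapped between the groups, in contrast to ERO1A, which ran from 39.5 to 46.2 CPM (median 44.4) and from 46.1 to 60.6 CPM (median 55.2), and SEC62, which ran from 213 to 250 CPM (median 229) and from 229 to 290 CPM (median 261).

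In LAPC4 at 8 h R1881 gave 0 calls among the 45 genes (edgeR), where 2.64% of all genes were called. Of the 45, 3 were at an unadjusted p under 0.05, against 1758 of all 18204 genes. DESeq2 also gave 0 calls among the 45, and the 95% interval lay within 0.25 log2 units of 0 for 40 of them. The change of the R1881 effect between 8 and 22 h was called for 0 of the 45 (edgeR and DESeq2), where 3.21% of all genes were called. An unadjusted p under 0.05 was found for 6 of the 45 and for 2487 of all 18204 genes. The vehicle libraries of the 2 times also differed, and time cannot be told apart from other differences between those cultures. With DMSO, 15 genes were higher and 2 lower at 22 h than at 8 h in VCaP (29.8% of all genes called, 15.9% higher), and 11 were higher and 4 lower in LAPC4 (22.1%, 10.7% higher). Scaling to total counts turned these into 14 and 5 in VCaP and 12 and 2 in LAPC4. The LAPC4 count of 15 fell to 9 with DMSO and R1881 replicates 1 to 5, 9 without a filter and 9 with the replicate block. It fell to 6 with the replicates from 6 upward, which left only DMSO replicates 6 and 7 at 22 h.

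Darolutamide lowered the set in VCaP cells that also received R1881. This comparison shares its R1881 libraries with that against DMSO, so a fall here and a rise there are not independent. With 2 µM at 22 h 41 of the 45 genes were lower and 2 higher than with R1881 alone, where 66.9% of all genes were called (36.1% higher and 30.8% lower). The median log2 fold change was -0.84, against 0.06 over all genes, and for 39 genes every 2 µM library lay below every R1881 library (20.6% of all genes). All 12 chaperones and all 6 disulfide genes were lower, with medians of -0.87 and -0.89, as were 12 of 14 translocation genes, 9 of 10 ERAD genes, XBP1 and ERN1.

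With 500 nM at 22 h 42 genes were lower and 1 higher than with R1881 alone (53% of all genes called, 26.4% lower), with a median of -0.55. The 2 doses were compared directly as well. With 2 µM 33 genes were lower and 0 higher than with 500 nM at 22 h, where 20.2% of all genes were called (10.4% higher and 9.75% lower), with a median of -0.30. For 33 genes all 2 µM libraries lay below all 500 nM libraries (9.57% of all genes). At 8 h 36 genes were lower with 2 µM (52.1% of all genes called, 26.2% lower) and 33 with 500 nM (30.6%, 15.7% lower) than with R1881, 0 were higher, and the medians were -0.58 and -0.37. Between the doses 28 genes were lower with 2 µM at 8 h and 0 higher (17.6% of all genes called, 7.53% higher and 10% lower).

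HSPA5 had 1443, 1542, 1550 and 1577 CPM in the 4 libraries with 500 nM at 22 h and 1215, 1268, 1276, 1305 and 1326 CPM in the 5 with 2 µM. All lay between the DMSO and the R1881 libraries, and the 2 doses did not overlap. The change against R1881 was -0.55 with 500 nM and -0.80 with 2 µM (SE 0.0364, edgeR adjusted p = 4.93e-27), and the difference between the doses was -0.26 (edgeR adjusted p = 3.33e-06). At 8 h it had 939, 960, 999 and 999.9 CPM with 500 nM and 649, 651, 664.6, 665 and 687 CPM with 2 µM. DNAJC10 had 240.6, 251.4, 264.4 and 271.4 CPM with 500 nM at 22 h and 151.5, 155, 156.7, 166.4 and 175.2 CPM with 2 µM, a change of -1.59 with the higher dose (edgeR adjusted p = 6.56e-34).

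DNAJC3 had 49.9, 57.2, 61.3 and 61.4 CPM with 500 nM at 22 h and 34.8, 37.2, 39.3, 39.6 and 41.3 CPM with 2 µM, a change of -1.62 with the higher dose (edgeR adjusted p = 1.24e-28). SEC11C had 101.8, 108.3, 113.3 and 116.4 CPM with 500 nM and 67.9, 71.3, 73.7, 75.6 and 77.4 CPM with 2 µM, a change of -1.37 (edgeR adjusted p = 1.34e-33). HERPUD1 had 93.8, 100.6, 104.5 and 107.2 CPM with 500 nM and 65.5, 72.5, 75.7, 76.7 and 76.9 CPM with 2 µM, a change of -1.44 (edgeR adjusted p = 1.29e-36). In all 3 the doses stood apart, with every 2 µM library still above the DMSO libraries.

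SDF2L1 was less separated, with 10.6, 11.1, 13.2 and 14.4 CPM with 500 nM and 7.22, 7.23, 8.64, 10.7 and 12.3 CPM with 2 µM, so that the doses overlapped each other and the R1881 libraries. Its change with 2 µM was -0.92 (edgeR adjusted p = 2.32e-06). PDIA5 had 66.6, 70.6, 71.8 and 72.0 CPM with 500 nM and 44.9, 47.9, 51.3, 51.7 and 52.4 CPM with 2 µM, and ERO1A had 59.5, 60.1, 62.3 and 62.9 CPM and 49.9, 56.3, 56.4, 56.9 and 59.7 CPM. The change with 2 µM was -1.12 for PDIA5 and -0.35 for ERO1A (edgeR adjusted p = 1.45e-06).

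ERN1 fell furthest. It had 36.6, 37.4, 40.1 and 42.0 CPM with 500 nM and 23.1, 23.6, 25.6, 25.6 and 26.0 CPM with 2 µM at 22 h, the latter within the range of the DMSO libraries. The change against R1881 with 2 µM was -2.13 (edgeR adjusted p = 3.4e-42). At 8 h it had 92.6, 92.9, 96.5 and 97.7 CPM with 500 nM and 46.2, 47.2, 48.1, 48.4 and 49.5 CPM with 2 µM, all between the DMSO and R1881 libraries. XBP1 had 315.4, 327.8, 340.4 and 355.5 CPM with 500 nM and 266.3, 279.5, 281.4, 282.4 and 287.4 CPM with 2 µM at 22 h, a change of -0.90 with the higher dose (edgeR adjusted p = 1.38e-29). At 8 h its libraries with 500 nM had 204.4, 215.3, 217.3 and 219.8 CPM, within the range with DMSO.

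The genes called higher with 2 µM at 22 h were SEC11A and DERL3. SEC11A had 179.7, 189.5, 199.5, 205.3 and 206.5 CPM, a change of 0.13 between overlapping groups. DERL3 changed by 0.74 (SE 0.196, edgeR adjusted p = 0.000875) and was the single gene of the set to rise both with R1881 and again with darolutamide added, but it had only 40 to 61 reads in the 2 µM libraries and overlaps SMARCB1 on the opposite strand. Not called were SPCS1, a signal peptidase subunit, at -0.04 and ATF6 at -0.05.

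Cells with R1881 and 2 µM darolutamide were also compared with the DMSO cells, which share neither treatment. At 22 h 39 genes were higher in VCaP and 1 was lower, where 59% of all genes were called (30.5% higher), and the median log2 difference was 0.51. All 2 µM libraries lay above all DMSO libraries for 34 genes (18.4% of all genes). The chaperones differed most, with all 12 higher and a median of 0.92, followed by disulfide formation with all 6 and a median of 0.78, translocation with 13 of 14 and a median of 0.50, and ERAD with 7 of 10 and a median of 0.30. HSPA5 was higher by 0.94 (edgeR adjusted p = 4.01e-30), MANF by 1.20 and SDF2L1 by 1.91. At 8 h the same contrast called 27 genes higher and 2 lower (27.5% of all genes called, 15.4% higher), with a median of 0.13.

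ERN1, SEC62, SEL1L, EDEM2 and ATF6 were not called against DMSO at 22 h. For ERN1 the difference was -0.03 (edgeR adjusted p = 0.605), although at 8 h it had been 1.07 (edgeR adjusted p = 2.16e-29). SEC62 had 226.7, 229.2, 233.6, 246.7 and 247.8 CPM with 2 µM, inside the range with DMSO, with a difference of -0.02. OS9 was the gene called lower, by 0.38 (log2 -0.38). It had 118.4 to 140.3 CPM with DMSO (median 131.5), 160.4 to 172.7 CPM with R1881 (median 166.4) and 93.2 to 107 CPM with 2 µM, so its 3 groups did not overlap, and it shares part of its locus with AGAP2. XBP1 was higher by 0.17 at 22 h (edgeR adjusted p = 4.5e-05) and lower at 8 h, at -0.13 (edgeR adjusted p = 0.00188).

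**Figure D4:**
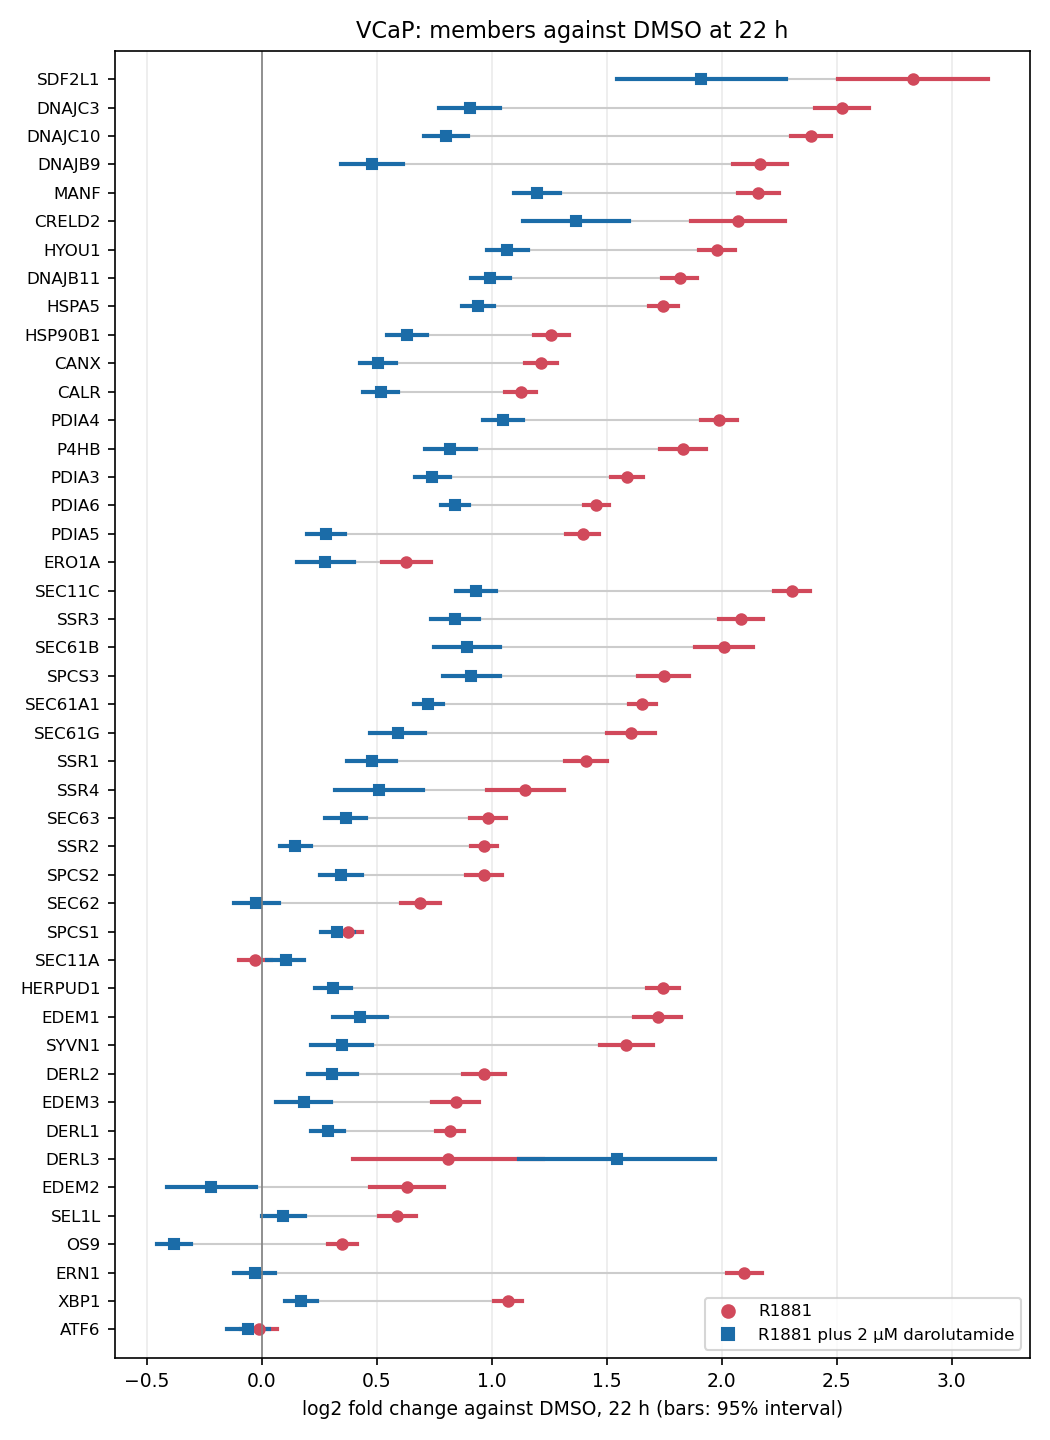
Log2 fold change against DMSO of each of the 45 genes in VCaP at 22 h, with R1881 alone in red and with R1881 plus 2 µM darolutamide in blue, with bars of the 95% interval and grey lines joining the pair. The blue points lie left of the red ones for most genes but mostly above 0, with a median of 0.51 against 1.46, ERN1 and SEC62 lie near 0, and OS9 lies at -0.38.

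In LAPC4 darolutamide moved few of the genes. With 2 µM at 22 h 5 were higher and 5 lower than with R1881, where 10.5% of all genes were called (5% higher and 5.47% lower), with a median of 0.02. The higher ones were XBP1 (0.13), SSR2 (0.11), OS9 (0.11), HSPA5 (0.09) and CALR (0.08), and the lower ones ERO1A (-0.21), ERN1 (-0.19), PDIA5 (-0.16), SPCS3 (-0.14) and EDEM1 (-0.12). HSPA5 had 1129, 1152, 1164, 1188 and 1234 CPM with 2 µM, which overlapped the R1881 libraries (edgeR adjusted p = 0.00333). ERN1 had 27.87, 28.43, 29.88, 30.02 and 30.1 CPM, overlapping them at their lowest library (edgeR adjusted p = 4.85e-05). XBP1 had 333, 334.4, 338.7, 351.3 and 352.5 CPM (edgeR adjusted p = 0.000488). All 2 µM libraries lay above all R1881 libraries for 2 genes, CALR and SSR2 (1.71% of all genes), by 1.06-fold and 1.08-fold. The count of 10 was 5 to 10 when a 2 µM library was left out, with 6, 5, 5 and 6 without replicate 1, 2, 3 and 5.

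The other LAPC4 contrasts held few calls or none. With 500 nM at 22 h OS9 was higher and SPCS3 lower (5.89% of all genes called, 2.68% higher and 3.21% lower). With 2 µM at 8 h HSPA5 alone was higher, by 0.08 (1.54%), and this call was lost with DESeq2 and when any of 4 of the 5 libraries was left out. Counts were 0 in edgeR and in DESeq2 for each of the contrasts that follow. For 500 nM against R1881 at 8 h 0.626% of all genes were called. An unadjusted p under 0.05 was found for 1 of the 45 and 884 of all 18204 genes. For the doses against each other these values were 0.258% (0.0439% higher), 7 and 977 at 22 h, and 0.0275%, 1 and 576 at 8 h. For 2 µM against DMSO they were 0.0165% (0.00549% higher), 5 and 1064 at 22 h, and 0.011%, 2 and 601 at 8 h. For 2 µM against DMSO at 22 h the 95% interval lay within 0.25 log2 units of 0 for 40 of the 45 genes.

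Other genes of the same pathways, 88 by list and 86 of them tested, moved less uniformly in VCaP. With R1881 at 22 h 67 were higher and 11 lower, where 37.4% of all genes were called higher and 40% lower, with a median log2 fold change of 0.60. The same shares over all genes apply to each list that follows. All 8 genes of the signal recognition particle and its receptor were higher, with SRP19, for example, at 1.34. Of the N-glycosylation and glycan trimming genes 14 of 18 were higher and 0 lower, led by RPN1 (1.57), a subunit of oligosaccharyltransferase, and UGGT1 (1.37), the folding sensor that reglucosylates unfolded glycoproteins. Of other oxidoreductases and folding factors 14 of 18 tested were higher and 3 lower, with FKBP2 (1.69) and PPIB (1.64) highest and PDIA2 (-2.09) and QSOX1 (-1.65) lowest.

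Of other ERAD genes 14 of 19 were higher and 5 lower. SELENOS, a partner of the retrotranslocation complex, rose by 2.01 and VCP, the ATPase that extracts the substrates, by 1.27, while ERLIN2 fell by 0.88. Of the membrane insertion genes 10 of 14 tested were higher and 3 lower, with TRAM1 at 1.37 and GET4, of the tail-anchor pathway, at -1.86. In the PERK arm 6 of 7 genes were higher, among them EIF2AK3, which encodes PERK, by 1.46. CHAC1, a target of that arm, was higher at 8 h by 2.23 and was not called at 22 h, with 0.40. With 2 µM darolutamide against R1881 11 of the 86 were higher and 58 lower (36.1% and 30.8% of all genes), with a median of -0.32. In LAPC4 5 of the 86 were higher and 4 lower with R1881 at 22 h, a share near or under that of all genes (6.83% higher and 6.45% lower).

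Across the set levels per length differed by orders of magnitude without androgen. With DMSO at 22 h the mean CPM per kilobase of the canonical transcript in VCaP was highest for HSP90B1 (529), CALR (523), CANX (307), P4HB (210) and HSPA5 (170). In LAPC4 it was highest for CALR (1170), P4HB (826), SSR2 (664) and HSP90B1 (489), and DERL3 was lowest in both lines. Of the 45 genes 15 overlap another protein-coding gene in the annotation, among them SYVN1, which shares its strand with FAU there, and CANX, CRELD2, SSR4, PDIA5, DERL3 and OS9, so their counts are less certain.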

How the data were processed

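RNA was sequenced as single-end reads of 50 bases from a stranded poly-A kit. The authors used STAR on GRCh38 and featureCounts, and deposited raw counts per gene. Versions, annotation and the strand setting of the counting are not given in the sources used here (the submitters' notes name bcl2fastq 2.17). The study describes biological replicates, but fewer per condition than the DMSO and R1881 libraries used here, and p-values measure the spread between libraries.

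Counts were fitted per line, all 8 groups together, with edgeR 4.0.16 in R 4.3.3 (TMM scaling, 10 or more reads in 4 or more libraries, quasi-likelihood test, Benjamini-Hochberg adjusted p under 0.05 over all genes tested). A joint fit of both lines tested differences between them. SE is the log2 fold change over the square root of F. CPM used TMM library sizes. The scripts were tested on simulated data. Given in full were the 4 largest rises and up to 3 largest falls called with R1881 at 22 h in each line, plus HSPA5 and XBP1. Other genes were chosen as examples by size of change per role group, or, where they stood outside a group's pattern, after their values were seen. The genes and lists were chosen with earlier results of these data known. Gene positions and transcript lengths came from the GENCODE annotation of GRCh38. Alternatives covered scaling, filters, DESeq2 1.42.0, replicate subsets, a replicate block and a GC covariate.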

Additional observations from a re-analysis of the deposited data

Results flagged for a closer look

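Among 176 combinations of group and gene given in full, 6 held a library far from the others by Dixon's criterion, which chance gives in about 1 in 20. In VCaP these were PDIA5 with DMSO at 8 h in replicate 6 (42.9 CPM, group median 36.7), PDIA5 with 2 µM at 8 h in replicate 1 (43.8, median 41.4) and SEC11C with DMSO at 8 h in replicate 5 (44.6, median 39.6). In LAPC4 they were SEC62 with 500 nM at 22 h in replicate 5 (172, median 182), HERPUD1 with 2 µM at 22 h in replicate 4 (64.9, median 58.3) and XBP1 with DMSO at 22 h in replicate 6 (357, median 326).

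The R1881 effect differed between the lines by a tested interaction for 42 of the 45 genes at 22 h (68.5% of all genes) and 38 at 8 h (58.5%). Between 8 and 22 h in VCaP it differed for 44 (60.4% of all genes). As log2 differences, VCaP minus LAPC4 at 22 h, the genes given in full had 1.72 for HSPA5, 2.38 for DNAJC3, 2.28 for DNAJC10, 2.53 for SDF2L1, 1.13 for PDIA5, 0.42 for ERO1A, 0.75 for SEC62, 2.18 for SEC11C, 1.58 for HERPUD1, 1.09 for XBP1 and 1.87 for ERN1. In VCaP, 22 h minus 8 h, they had 0.38 for HSPA5, 0.98 for DNAJC3, 1.92 for DNAJC10, 1.47 for SDF2L1, 0.78 for PDIA5, 0.30 for ERO1A, 0.50 for SEC62, 1.03 for SEC11C, 0.33 for HERPUD1, 0.71 for XBP1 and -0.83 for ERN1.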

How the results depend on the processing

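Counts of called genes stayed within 1.5 times the reported value in 295 of 340 combinations of contrast and alternative fit, and all 45 that moved further were in LAPC4. Control replicates are here those of DMSO and R1881. From 6 upward they held only replicates 6 and 7 for LAPC4 with DMSO at 22 h. With R1881 at 22 h the LAPC4 count of 8 became 3 with control replicates 1 to 5, 0 with those from 6 upward, 15 with a GC covariate, 4 without a filter and 5 with only the groups compared. With 2 µM against R1881 at 22 h, 10 became 4 with control replicates from 6 upward, 17 with the GC covariate, 6 without a filter, 6 with only the groups compared and 5 to 10 with a 2 µM replicate left out (6, 5, 5 and 6 without replicate 1, 2, 3 and 5). With 500 nM at 22 h, 2 became 1 with control replicates from 6 upward, without a filter and with only the groups compared, 7 with the GC covariate, and 1 to 2 with a replicate left out (1 without replicate 1, 3, 4 or 5). With 2 µM at 8 h, 1 became 0 with control replicates from 6 upward, DESeq2, filterByExpr, no filter, only the groups compared, RLE scaling or total counts, 5 with the GC covariate, and 0 to 1 with a replicate left out. A count of 0 became 1 between the doses at 22 h, 2 with R1881 at 8 h and 9 for the time difference under the GC covariate, and, with control replicates 1 to 5, 1 for 2 µM against DMSO at 22 h and 2 at 8 h. The 15 of DMSO at 22 h against 8 h became 9 with control replicates 1 to 5, 6 with those from 6 upward and 9 without a filter. The cause was not tested. The higher and lower calls of LAPC4 with R1881 at 22 h, 6 and 2, became 4 and 3 with total counts, and 5 and 3 with RLE scaling or DESeq2.

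Same-numbered libraries deviated together little on average (mean r of -0.00511 over 149 pairs in VCaP and 0.0549 over 161 in LAPC4). Single pairs ranged from -0.501 to 0.455 in VCaP and from -0.573 to 0.597 in LAPC4, with r above 0.1 in 33 and 57 pairs. The numbers were not taken as pairs, and pairing between particular groups was not tested. With the replicate block the counts in LAPC4 became 4 for 500 nM at 22 h, 0 for 2 µM at 8 h, 1 for 2 µM against DMSO at 22 h and 9 for DMSO at 22 h against 8 h, and no other count moved by more than 1.5 times.

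Scaling to total counts moved the median of all genes in VCaP with R1881 at 22 h from -0.03 to -0.14, and the set then had 43 genes higher and 2 lower with a median of 1.34. Over combinations of gene, contrast and alternative fit, the genes given in full were called alike in 518, gained a call in 6 and lost it in 26. Of the 518, 2 changed sign without a call in either fit. Depth limits DERL3 and SDF2L1 most.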
